A study of Mus musculus with 36 samples.

Results

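The genes described here were the 52 protein-coding genes, of 55358 listed genes and 21834 protein-coding ones, whose symbols begin with Srsf, Hnrnp, Snrp, Sf3a or Sf3b. The names were the only criterion for a member, but the family itself was chosen by measured values, since it was taken up with the earlier fold changes between these groups known. Its counts are therefore given as descriptions and carry no test over the family. The members comprised 20 hnRNP genes, 11 SR protein genes, 8 genes of the Sm core, 4 genes of U1 and U2 snRNP proteins, 3 SF3A genes and 6 SF3B genes. Of these, 51 passed the filter on low counts and were among the 15114 genes tested. The exception was Srsf12, which had at most 3 counts in any library. A further 6 pseudogenes carry the same name starts and were not members.

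Introns are removed from pre-mRNA by the spliceosome, which assembles anew on each intron from small nuclear ribonucleoproteins (snRNPs) named after their U RNAs. The Sm proteins form a ring around most of these RNAs, the U1 and U2 snRNP proteins help to recognise the splice site and the branch point, and the SF3A and SF3B complexes are parts of the U2 snRNP that hold the branch point. SR proteins bind exons and mostly promote their inclusion, whereas hnRNPs coat nascent transcripts and often repress splice sites. Many SR and hnRNP genes hold down their own mRNA through exons that introduce an early stop codon.

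RNA-seq of poly(A) RNA was available for 36 libraries of primary mouse keratinocytes, the main cell type of the epidermis, with 3 libraries in each of 12 groups. WT cells carried intact Pkp4, which encodes plakophilin 4, a protein of adherens junctions. PKP4-KO cells came from newborn pups of a line made from the Pkp4 tm1b(EUCOMM)Wtsi allele, its reporter since removed with FLPe, and Rescue cells were PKP4-KO cells given a lentiviral, EGFP-tagged human PKP4 and selected with puromycin. Each genotype was grown at 32 °C for 24 h or 72 h in low calcium medium (LCM, 50 µM CaCl2) or in high calcium medium (HCM, LCM with 1.2 mM CaCl2 added), the switch that lets keratinocytes form junctions and differentiate. The animals that gave WT cells were not those that gave PKP4-KO cells, and Rescue cells differed from PKP4-KO cells by virus and selection as well as by the protein. PKP4-KO cells with an empty or EGFP-only vector were not among the libraries. In the library titles all 72 h groups carry HD and all 24 h groups LD, letters the titles do not explain. What these letters mark cannot be told apart from culture time. The design names the 3 libraries of each group biological replicates. Whether they came from separate animals or cultures is not stated, so p-values measure the spread between these libraries.

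The total count per library lay between 13602728 and 22467187, and 0.459% to 1.40% of it fell on the members. Pkp4 was at 12.6% to 27.5% of the WT level in PKP4-KO cells over the 4 culture conditions (exact two-sided permutation test, p = 0.1 each, the smallest that 3 against 3 libraries can give), and the GFP-PKP4 transcript had at least 1902 counts in each Rescue library against at most 113 elsewhere. The 9 keratinocyte markers summed to 23515 to 71933 counts per 1000000 (CPM), those of fibroblasts, melanocytes and endothelial cells to at most 11.5, and of the 5 leukocyte markers Ptprc, the defining one, had group means of at most 0.150 CPM. Cd68, a lysosomal protein that macrophages hold in quantity, made up nearly all of the leukocyte sum of 6.78 to 178 CPM, with group means of 65.3 to 115 CPM in Rescue against 8.52 to 42.8 CPM in the other groups. Among the keratinocyte markers, the differentiation keratins were far higher in PKP4-KO 72 h HCM, with Krt1 at 3752 CPM against 39.7 in WT and 17.8 in Rescue, and Krt10 at 4437 CPM against 533 and 424. Both were above WT in the other PKP4-KO groups too. At 24 h LCM, 24 h HCM and 72 h LCM, Krt1 had means of 23.85, 110 and 432 CPM against 0.722, 6.81 and 7.08 in WT. Krt10 had means of 29.8, 109 and 817 CPM against 9.62, 51 and 33.7 in WT. The part of Cd68-expressing cells and of differentiation in the results was not tested. Libraries differed in how much of their count fell on genes with short transcripts. The share of counts on genes whose canonical transcript (the representative one in the annotation) is under 1000 nt was 30.9% to 33.3% in the 3 PKP4-KO 72 h HCM libraries, against at most 26.2% in any other. Within their groups, 7 single libraries stood apart in this share, at 1.36 times the group median or more, while the other 29 were at 1.13 times or less. They were WT 24 h HCM replicate 2, WT 72 h HCM replicate 3, PKP4-KO 24 h LCM replicate 1, PKP4-KO 24 h HCM replicate 3, PKP4-KO 72 h LCM replicate 2, Rescue 24 h LCM replicate 3 and Rescue 72 h LCM replicate 2. The part of this share in the results was not tested, and in PKP4-KO 72 h HCM, where all libraries shared it, it cannot be told apart from the genotype and condition.

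**Figure D1:**
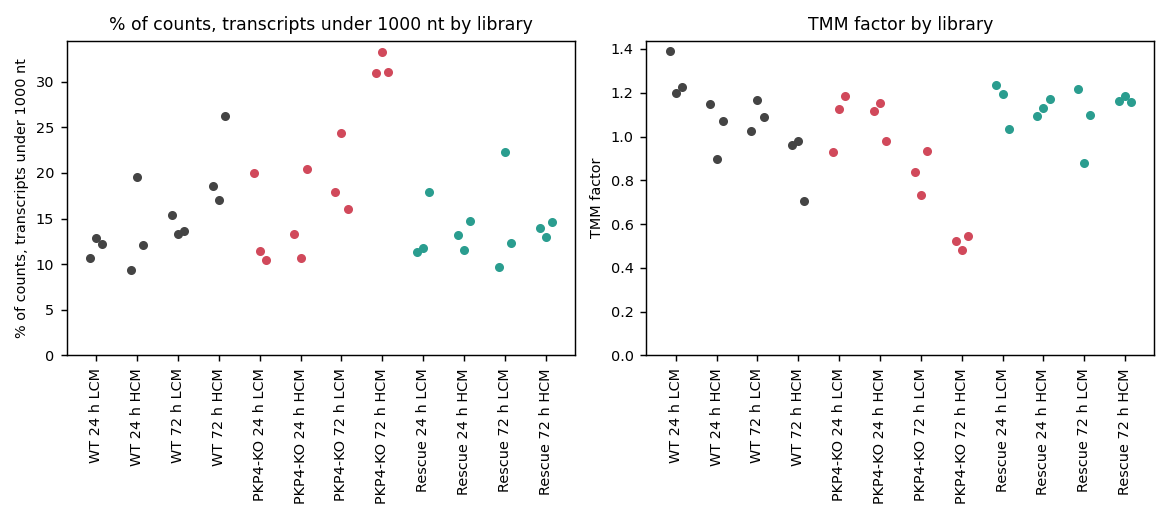
Share of the total count on genes with a canonical transcript under 1000 nt (left, percent) and TMM scaling factor (right, no unit) in each of the 36 libraries, with 1 point per library, grey for WT, red for PKP4-KO and green for Rescue. The 3 PKP4-KO 72 h HCM libraries had the highest shares, 30.9% to 33.3%, and the lowest TMM factors, 0.481 to 0.546, against 0.705 to 1.39 elsewhere.

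Levels are CPM scaled with TMM factors, which set the bulk of genes equal between libraries. This choice bears on the direction of changes in the family. With plain library sizes, the median log2 fold change of all tested genes in PKP4-KO against WT moved by -0.23 at 24 h LCM, 0.06 at 24 h HCM, and after 72 h by -0.38 in LCM and -0.76 in HCM, and in Rescue against PKP4-KO by 0.09, 0.06, 0.35 and 1.17. Changes below are therefore relative to the bulk of genes. Shares of all genes called are those of the TMM fit unless another fit is named. With plain library sizes all genes shifted together, so counts under that setting are no result about the family or a list alone. In bulk RNA, fewer cells of a type and less RNA per cell cannot be told apart.

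Per kilobase of canonical transcript, Hnrnpab, which encodes an hnRNP A/B protein, had the highest mean level over the 36 libraries at 484 CPM per kb. The highest members of the other classes were Snrpb of the Sm ring at 285 CPM per kb, Sf3b6, whose product touches the branch point adenosine, at 157, Snrpc of the U1 snRNP at 125, Srsf2 at 118 and Sf3a2 at 37.0. The lowest tested members on this scale were Hnrnpr at 1.72, Hnrnph3 at 2.77 and Snrpn, the Sm protein gene that takes the place of Snrpb in brain, at 5.03 CPM per kb. Before division by length (21475 nt for Hnrnpr), Hnrnpr had a mean of 36.9 CPM and Hnrnph3 of 6.45 CPM. Snrpg, of the Sm ring, varied most between groups, with a 20.9-fold range of group means, followed by Snrpe with 11.4-fold. Hnrnpab itself ranged from 581, 634 and 656 CPM in PKP4-KO 72 h HCM to 979, 1501 and 1416 CPM in PKP4-KO 24 h LCM, and 2 of the latter libraries were above every WT library. Hnrnpul1 varied least, with a 1.62-fold range from 128 ± 10.7 CPM (SD, n = 3) in Rescue 72 h HCM to 207 ± 7.64 CPM (SD, n = 3) in PKP4-KO 24 h LCM.

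**Figure D2:**
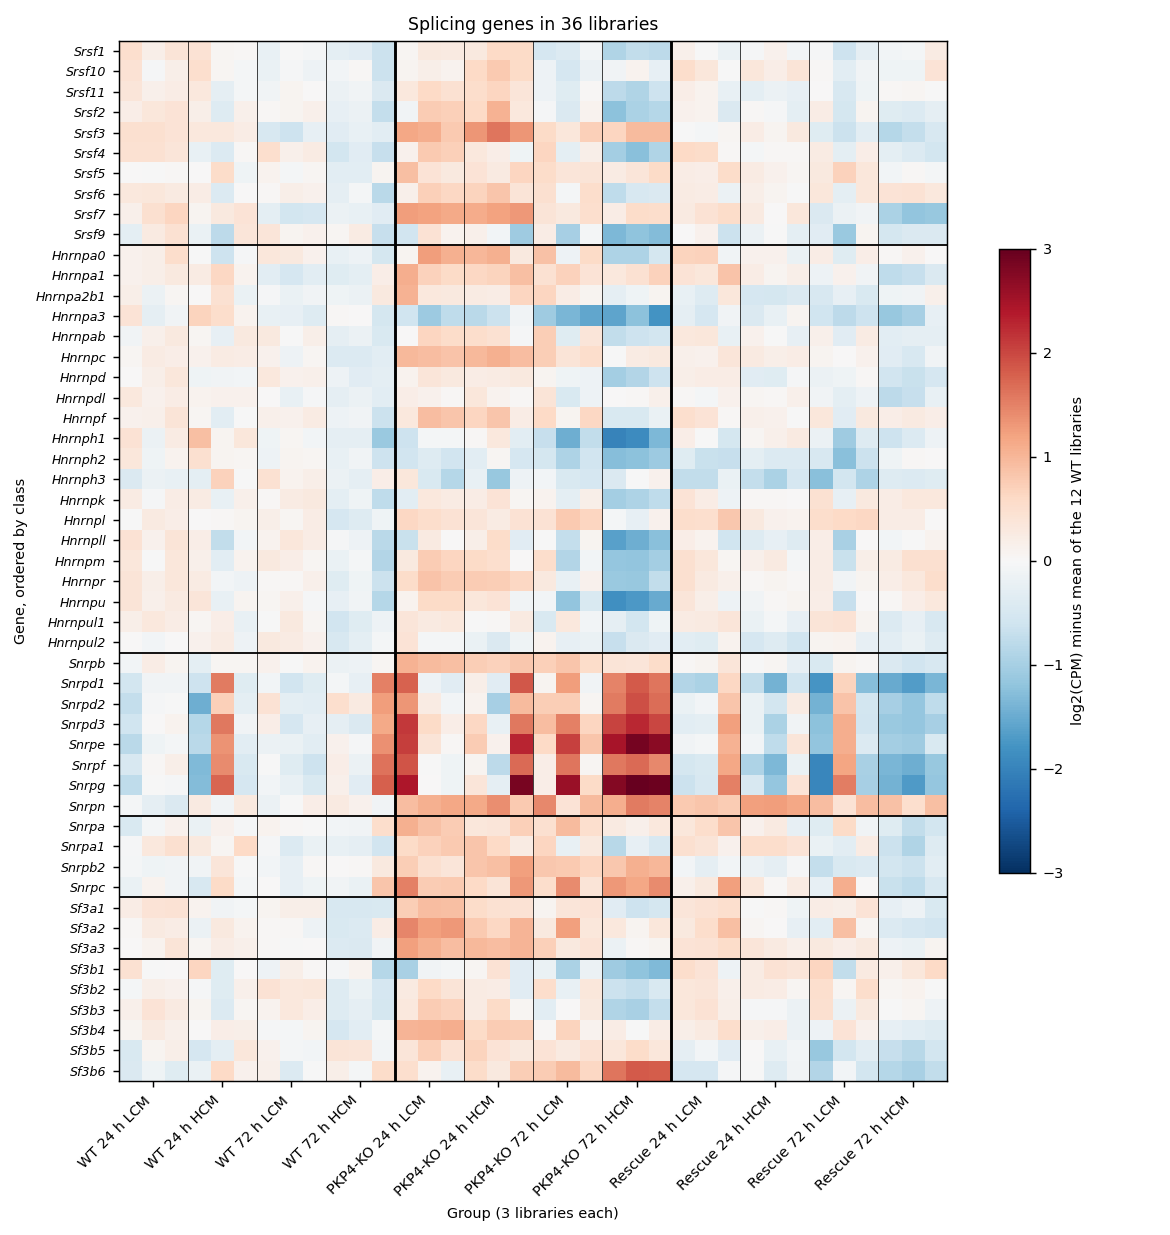
Level of the 51 tested members in the 36 libraries as log2(CPM) minus the mean of the 12 WT libraries, with genes in rows by class and 3 libraries per group in columns. The Sm genes Snrpd1 to Snrpg changed from library to library and were highest in PKP4-KO 72 h HCM, while Srsf3, Srsf7, Snrpn and Snrpb2 were higher throughout the PKP4-KO groups on this TMM scale.

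At 24 h nearly all members called between PKP4-KO and WT were higher in PKP4-KO. In 24 h LCM 19 members rose and 2 fell with an adjusted p below 0.05 (edgeR's quasi-likelihood test, Benjamini-Hochberg adjustment over all tested genes). The background was large, since 40.2% of all tested genes were called, 19.7% higher and 20.6% lower. The median log2 fold change of the members was 0.42, and that of all genes 0.0033. In 24 h HCM 20 members rose and 2 fell, against 42.8% of all genes called, 20.7% higher and 22.2% lower, with medians of 0.36 and -0.0016. In 72 h LCM 15 rose and 4 fell, against 45.1% of all genes called, 21.3% higher and 23.8% lower, with medians of 0.25 and 0.025. In 72 h HCM 15 rose and 16 fell, against 51.8% of all genes called, 21.9% higher and 29.9% lower, with medians of -0.0054 and -0.072. The share of members called was thus near the background at 24 h and 72 h LCM, and the difference lay in the direction. Plain library sizes gave 11 higher and 2 lower, 21 and 1, 5 and 9, and 2 and 33, so that the majority turned to lower at 72 h LCM and lower members dominated at 72 h HCM. All tested genes shifted too in that setting, as given above, and their share called in it is not given here. Without the 7 libraries that stood apart the member counts were 26 and 2, 24 and 3, 22 and 6, and 21 and 20. Of all genes in that fit 21.1% were higher and 22.7% lower, 21.5% and 23.6%, 23.8% and 25.4%, and 29.8% and 32.1%. At 72 h HCM the count was 19 without WT replicate 2 and 34 without WT replicate 3.

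The same TMM-scaled values read library by library gave a like split, which is no separate evidence. The 3 PKP4-KO libraries lay entirely above the 3 WT libraries for 22 members and entirely below for 3 in 24 h LCM, where 50.6% of all genes did not overlap. The counts were 20 and 2 in 24 h HCM (46.7% of all genes), 20 and 9 in 72 h LCM (55.2%), and 16 and 18 in 72 h HCM (58.2%). Over the 4 conditions, 40 members (78.4%) were called at least once and 11 in none, against 73.8% of all tested genes called at least once, and 4 (Hnrnpd, Hnrnpr, Srsf2 and Srsf11) were called in both directions.

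**Figure D3:**
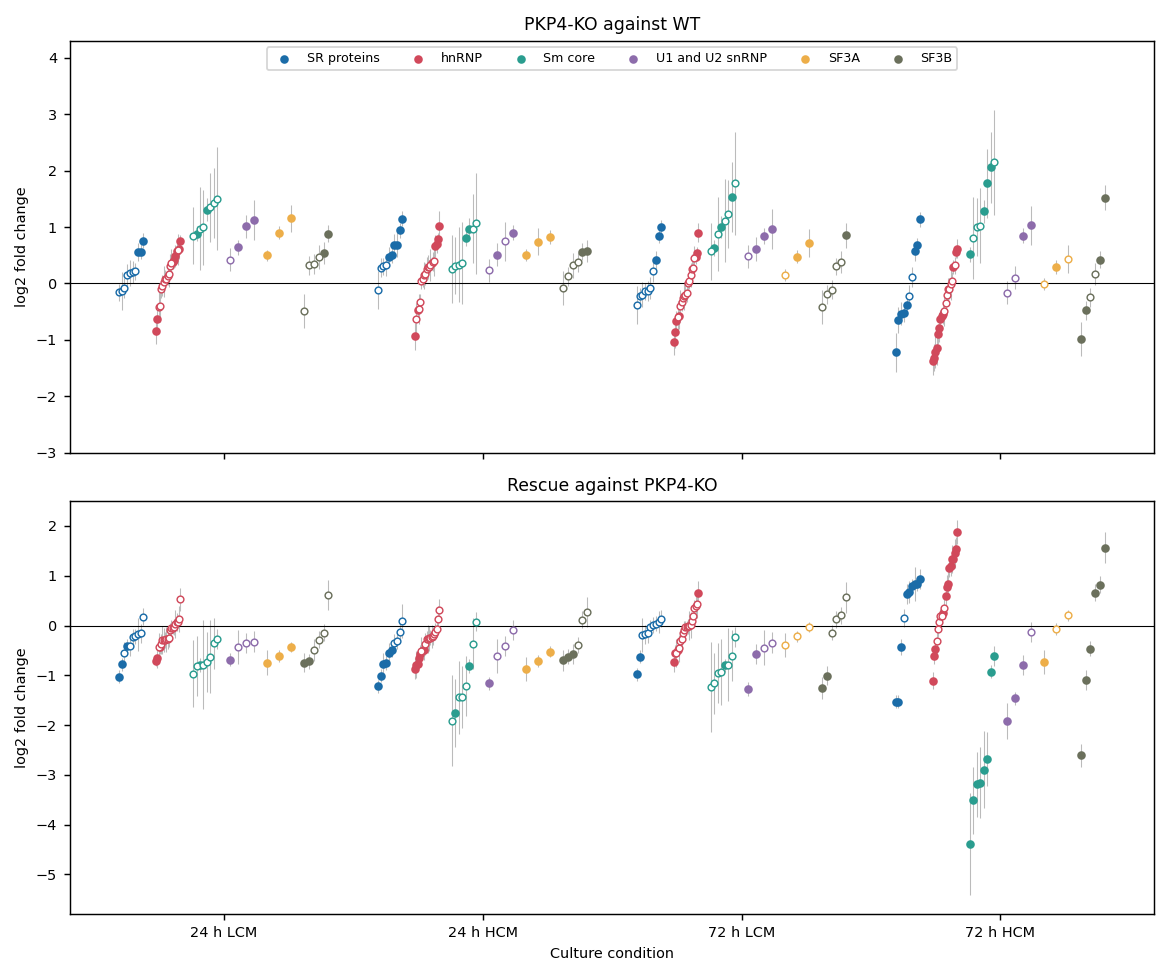
log2 fold change (y axis) of each tested member with its standard error (bars), by class (colour) and culture condition, for PKP4-KO against WT (top) and Rescue against PKP4-KO (bottom), with filled points for members with an adjusted p below 0.05. At 24 h most filled points lay above 0 at the top and all lay below 0 at the bottom, while at 72 h HCM the Sm core went up to 2.15 at the top and down to -4.39 at the bottom; with plain library sizes the values of 72 h HCM moved by -0.76 (top) and 1.17 (bottom), and the calls there became 2 higher and 33 lower, and 37 and 10.

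Among the SR proteins, 3 of 10 rose in PKP4-KO at 24 h LCM, 6 at 24 h HCM and 3 at each 72 h condition, and 5 fell at 72 h HCM, whereas with plain library sizes 1, 3, 2 and 0 SR proteins rose and 0, 0, 1 and 7 fell. Srsf3, the smallest SR protein, which also acts in mRNA export, lies at chr17:29251321-29262347 on the plus strand (GRCm39). In 24 h HCM it stood at 256, 253 and 238 CPM in WT, 513, 626 and 516 CPM in PKP4-KO, and 240, 216 and 252 CPM in Rescue. In 72 h HCM it stood at 162, 176 and 166 CPM in WT, 319, 398 and 393 CPM in PKP4-KO, and 113, 124 and 146 CPM in Rescue. In both, each PKP4-KO library was above every WT and Rescue library. The log2 fold changes of PKP4-KO against WT were 0.56 ± 0.13 (SE; adjusted p = 0.00121) and 1.15 ± 0.13 (4.11e-08) at 24 h LCM and HCM and 0.99 ± 0.13 (6.39e-07) and 1.14 ± 0.13 (6.17e-08) at 72 h. For plain library sizes the value of 24 h LCM was 0.31 (adjusted p = 0.209) and that of 72 h HCM 0.36 (0.0948). A 257-nt stretch of its exons overlaps the noncoding Trp53cor1 on the opposite strand. Exons of Srsf2, Srsf4 and Srsf9 overlap genes of the opposite strand over more, at 2436, 3506 and 4654 nt, and further members overlap as well.

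Srsf7, which resembles Srsf3 and carries a zinc knuckle, gave a like picture. In 24 h LCM it stood at 128, 161 and 181 CPM in WT, 277, 266 and 254 CPM in PKP4-KO, and 139, 156 and 169 CPM in Rescue, so that WT and Rescue overlapped and PKP4-KO lay above both. Its log2 fold changes against WT were 0.76 (3.08e-05), 0.95 (8.48e-07), 0.84 (6.95e-06) and 0.68 (9.67e-05), each ± 0.13, though with plain library sizes that of 72 h HCM was -0.10. The other SR genes were called in fewer conditions. Srsf5 rose by 0.57 at 72 h HCM (0.00549), with -0.17 for plain library sizes. Srsf11 rose by 0.50 at 24 h HCM (0.00602) but not without WT replicate 2 (0.37, adjusted p = 0.0594), and it fell by 0.53 at 72 h HCM (0.00411). Srsf9 fell by 1.22 on the log2 scale at 72 h HCM (0.00429). Srsf2, in 24 h HCM at 325, 220 and 321 CPM in WT and 437, 594 and 361 CPM in PKP4-KO, rose by 0.69 (0.0144), a call lost without WT replicate 2 (0.52, adjusted p = 0.0951) or PKP4-KO replicate 2 (0.46, adjusted p = 0.134).

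The hnRNP genes went both ways. In PKP4-KO against WT 6 of 20 rose and 2 fell at 24 h LCM, 5 and 2 in HCM of the same time, 3 and 4 after 72 h in LCM, and 3 and 9 in HCM, and with plain library sizes 2 and 2, 7 and 1, 1 and 8, and 0 and 17. Hnrnpc, whose product binds uridine tracts and keeps cryptic exons silent, lies at chr14:52310561-52341614 on the minus strand. It stood at 195, 219 and 212 CPM in WT 24 h LCM and at 366, 355 and 334 CPM in PKP4-KO, and in 72 h HCM at 139, 139 and 149 CPM against 185, 219 and 227 CPM. No PKP4-KO library overlapped the WT libraries of its condition. The log2 fold changes were 0.75 (3.25e-06), 0.79 (1.08e-06), 0.54 (0.000234) and 0.56 (0.00014), each ± 0.11, with -0.20 at 72 h HCM for plain library sizes. Rescue libraries of Hnrnpc stood at 208, 202 and 237 CPM in 24 h LCM, within 0.08 of WT on the log2 scale in every condition and never called.

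Hnrnpa3 and Hnrnph2 fell in all 4 conditions. Hnrnpa3, a relative of the exon-silencing Hnrnpa1 at chr2:75489605-75499751, stood at 92.1, 83.3 and 62.4 CPM in WT 24 h HCM and 33.1, 36.9 and 54.2 CPM in PKP4-KO, and in 72 h HCM at 59.6, 58.0 and 39.99 CPM against 19.4, 24.6 and 16.7 CPM, with no overlap. Its log2 fold changes were -0.85 ± 0.23 (0.00433), -0.94 (0.00143), -1.04 (0.00061) and -1.38 ± 0.24 (2.39e-05). Without WT 24 h LCM replicate 1 that of 24 h LCM was -0.62 (adjusted p = 0.055). Hnrnph2, whose product binds runs of G, is X-linked and lies at chrX:133501878-133507810. It fell by 0.62 (0.00526), 0.47 (0.0307), 0.67 (0.00276) and 0.89 (0.000153), and at 24 h HCM the call was lost without WT replicate 1 (-0.32, adjusted p = 0.199), PKP4-KO replicate 1 (-0.43, adjusted p = 0.1) or PKP4-KO replicate 3 (-0.35, adjusted p = 0.158).

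At 72 h HCM several further hnRNP genes were low in PKP4-KO. Hnrnpu, which encodes a nuclear scaffold protein and has a canonical transcript of 7640 nt, stood at 257, 285 and 168 CPM in WT, 85.0, 93.0 and 107 CPM in PKP4-KO, and 311, 352 and 381 CPM in Rescue. Its groups did not overlap, and the log2 fold change against WT was -1.32 ± 0.24 (4.52e-05). Hnrnph1 fell by 1.21 ± 0.28 (0.00062), Hnrnpll, a splicing repressor known from lymphocytes, fell by 1.15 ± 0.29 (0.00183), Hnrnpr fell by 0.63 (0.00104) and Hnrnpd fell by 0.57 (0.000151). Exons of Hnrnpu share 3952 nt with Cox20 on the opposite strand. When transcript length was modelled by offsets per library, the values of Hnrnpr and Hnrnpd turned to 0.49 and 0.12. Hnrnpa0, by contrast, was higher at 24 h HCM, at 182, 119 and 181 CPM in WT against 367, 384 and 224 CPM in PKP4-KO, a log2 fold change of 1.02 ± 0.27 (0.00308).

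The 8 Sm core genes held the largest fold changes of PKP4-KO against WT at 24 h LCM and at both 72 h conditions, whereas Srsf3 held it at 24 h HCM. Snrpn rose in all 4 conditions, although at 72 h HCM its value with plain library sizes was 0.49 (adjusted p = 0.136). Its exons share 1250 nt on the same strand with Snurf, Snord107 and Gm38393, so that its counts are uncertain. In 24 h LCM it stood at 10.8, 9.33 and 8.38 CPM in WT, 21.6, 23.8 and 25.2 CPM in PKP4-KO, and 19.3, 20.3 and 19.05 CPM in Rescue. Both PKP4-KO and Rescue lay above WT without overlap. Its log2 fold changes of PKP4-KO against WT were 1.31 (6.18e-06), 0.97 (0.000219), 0.997 (0.000179) and 1.28 (7.4e-06), each ± 0.20. Snrpb, which encodes the common SmB/B' protein, stood at 262, 322 and 292 CPM in WT 24 h LCM, 569, 531 and 514 CPM in PKP4-KO, and 282, 294 and 356 CPM in Rescue. It rose by 0.88 (5.05e-06), 0.80 (1.52e-05), 0.63 (0.000357) and 0.52 (0.00189), each ± 0.13, but at 72 h HCM the value was -0.23 with plain library sizes and 0.0044 with length offsets.

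The remaining Sm genes, Snrpd1, Snrpd2, Snrpd3, Snrpe, Snrpf and Snrpg, followed the share of short transcripts from library to library. Snrpg stood at 395, 74.7 and 67.7 CPM in PKP4-KO 24 h LCM and at 94.7, 61.1 and 535 CPM in 24 h HCM, and in WT 24 h HCM at 30.1, 248 and 52.5 CPM. The high library of each of these groups was the one that stood apart in its share of short transcripts. In 72 h HCM all 3 PKP4-KO libraries were high, at 500.1, 678 and 572 CPM, against 82.3, 58.8 and 255 CPM in WT and 27.8, 22.8 and 32.9 CPM in Rescue. The log2 fold changes of Snrpg against WT were 1.5002 ± 0.91, 1.06 ± 0.90, 1.78 ± 0.92 and 2.15 ± 0.93, and none passed the test (adjusted p = 0.0535 at 72 h HCM).

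Snrpe, with a canonical transcript of 722 nt, stood in 72 h HCM at 82.1, 73.3 and 193 CPM in WT and 415, 547 and 485 CPM in PKP4-KO and rose by 2.06 ± 0.63 (0.00767). At 72 h LCM, with 66.4, 65.5 and 59.9 CPM in WT and 112, 308 and 133 CPM in PKP4-KO, its rise of 1.53 ± 0.62 (0.0455) was lost without PKP4-KO replicate 2 (0.94, adjusted p = 0.276) or without WT replicate 1, 2 or 3 (adjusted p = 0.0911, 0.103 and 0.109). Snrpd3 stood at 114, 103 and 303 CPM in WT 72 h HCM and 562, 659 and 550 CPM in PKP4-KO and rose by 1.77 ± 0.62 (0.0176), a call lost without WT replicate 1 (1.54, adjusted p = 0.0809) or 2 (1.499, adjusted p = 0.0876). Summed over the 8 genes, PKP4-KO 72 h HCM held 2868 to 3530 CPM, WT 840 to 1987 CPM and Rescue 452 to 541 CPM.

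**Figure D4:**
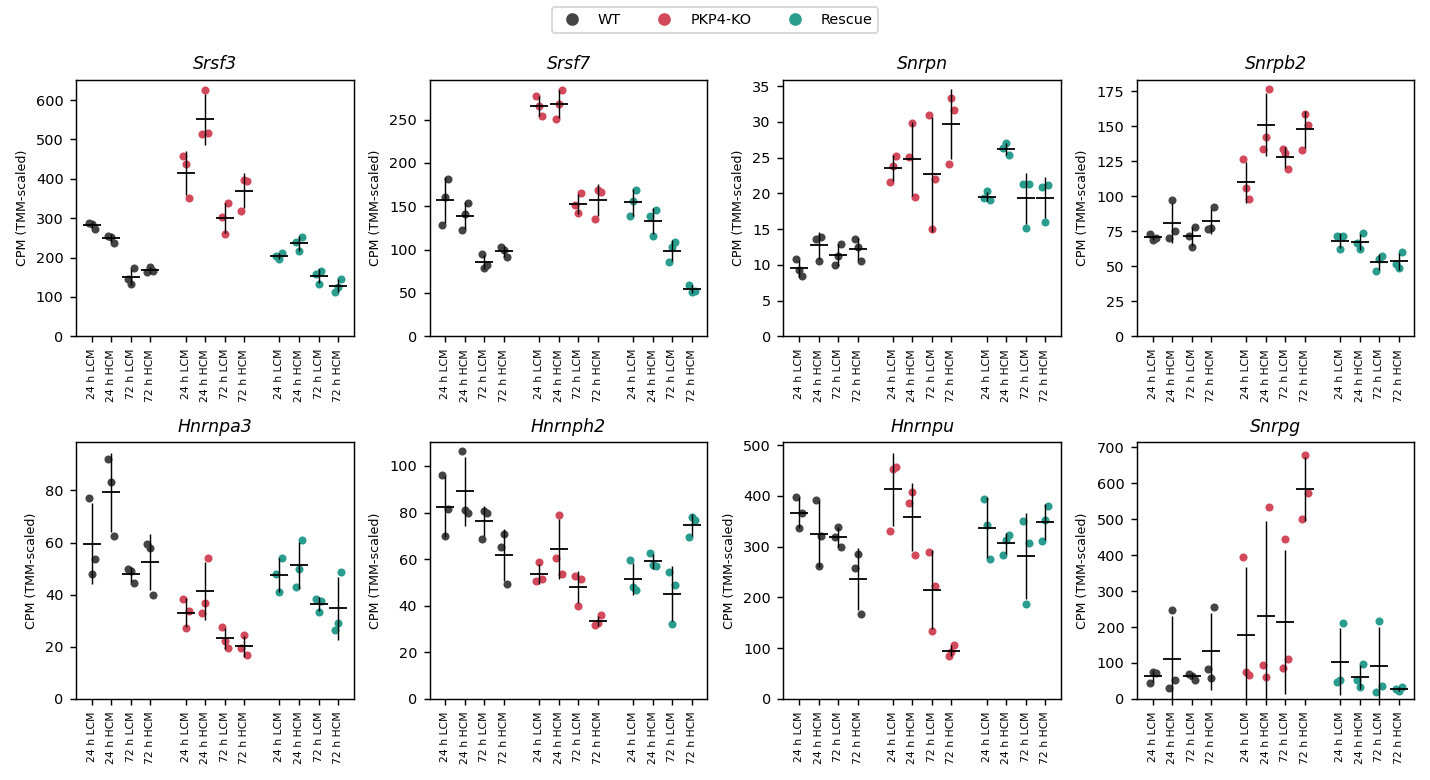
Level (y axis, TMM-scaled CPM, from 0) of 8 members in each library (points), with the group mean and SD (black), in WT (grey), PKP4-KO (red) and Rescue (green) at the 4 culture conditions. Srsf3, Srsf7 and Snrpb2 were higher in PKP4-KO than in WT and lower in Rescue than in PKP4-KO, Snrpn was higher in both, and Snrpg had a single high library in several groups; with plain library sizes Srsf7 at 72 h HCM was -0.10 on the log2 scale against WT.

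Of the U1 and U2 snRNP proteins, 3 of 4 rose in PKP4-KO at 24 h LCM, 2 in HCM of the same time, and 3 and 2 at 72 h in LCM and HCM, and none fell, but with plain library sizes 2 of the U1 and U2 snRNP genes fell and none rose at 72 h HCM. Snrpb2, the U2 snRNP B'' protein that binds the U2 RNA hairpin, lies at chr2:142904904-142915166 on the plus strand. In 72 h LCM it stood at 71.9, 64.1 and 78.0 CPM in WT, 134, 131 and 119 CPM in PKP4-KO, and 46.4, 55.3 and 57.0 CPM in Rescue. The 3 groups did not overlap. It rose by 0.64 (0.000377), 0.90 (2.89e-06), 0.84 (1.06e-05) and 0.85 (8.22e-06), each ± 0.14, in PKP4-KO against WT, with 0.09 (adjusted p = 0.515) at 72 h HCM for plain library sizes. Snrpc, which steadies the pairing of U1 with the splice site, stood at 61.1, 76.6 and 65.2 CPM in WT 24 h LCM and 202, 120 and 122 CPM in PKP4-KO. Its rise of 1.13 ± 0.35 (0.0112) was lost without PKP4-KO replicate 1 (0.84, adjusted p = 0.086), the library rich in short transcripts. Snrpa, the U1 A protein, rose by 1.01 at 24 h LCM (0.000273).

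All 3 SF3A genes rose in PKP4-KO at both 24 h conditions, and with plain library sizes 2 did in LCM and 3 in HCM. Sf3a3, at chr4:124608569-124626253 on the plus strand, stood at 48.3, 51.3 and 62.9 CPM in WT 24 h LCM, 112, 100.001 and 91.7 CPM in PKP4-KO, and 64.1, 64.6 and 70.7 CPM in Rescue. PKP4-KO lay above both others, and Rescue above WT, though Sf3a3 was not called there for Rescue against WT (0.29, adjusted p = 0.0729). In PKP4-KO against WT Sf3a3 rose by 0.90 (6.52e-07), 0.82 (2.01e-06), 0.48 (0.00199) and 0.30 (0.0417), each ± 0.12. The last of these calls, at 72 h HCM, was lost without WT replicate 1 (adjusted p = 0.16), WT replicate 2 (0.179), PKP4-KO replicate 2 (0.123) or PKP4-KO replicate 3 (0.154), and the value was -0.45 with plain library sizes. Sf3a2 stood at 71.3, 84.9 and 82.3 CPM in WT 24 h LCM and 194, 164 and 172 CPM in PKP4-KO and rose by 1.15 ± 0.24 (4e-04). Sf3a1 rose by 0.50 (0.000319) and 0.51 (0.000217) at 24 h and stood at -0.01 at 72 h HCM.

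In the SF3B complex, Sf3b4 rose by 0.88 (2.74e-05) at 24 h LCM and 0.57 (0.00294) at 24 h HCM. Sf3b6 stood in 72 h HCM at 171, 146 and 222 CPM in WT, 461, 547 and 538 CPM in PKP4-KO, and 84.7, 77.5 and 91.5 CPM in Rescue, with no overlap between the groups, and rose by 1.52 ± 0.22 (1.95e-06). Sf3b1, the scaffold of the complex and its longest subunit, stood at 92.1, 102 and 52.6 CPM in WT 72 h HCM and 45.7, 41.3 and 38.0 CPM in PKP4-KO. Its fall of 0.98 ± 0.31 (0.00942) was lost without WT replicate 2 (-0.81, adjusted p = 0.0577). Sf3b2 was not called in any of the 4 conditions.

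Over the 4 conditions, 7 members were called higher in each (Srsf3, Srsf7, Hnrnpc, Snrpb, Snrpn, Snrpb2 and Sf3a3), though with plain library sizes Srsf7, Hnrnpc, Snrpb and Sf3a3 turned negative at 72 h HCM, and 2 were called lower in each (Hnrnpa3 and Hnrnph2). Among all tested genes 1281 were higher and 1536 lower in each. Without the 7 libraries that stood apart, 12 members were higher in each, all 7 among them, and the same 2 were lower. With length offsets 11 were higher, of which 5 were shared, and Hnrnph2 alone was lower. For 3 of the members that rose together, the bases just upstream of the canonical transcript start, in windows free of annotated exons, were read from GRCm39 and are shown on the strand of the gene, with letters of searched motifs in capitals. They are Hnrnpc (chr14:52341615-52341734, minus), Sf3a3 (chr4:124608449-124608568, plus) and Snrpn (chr7:59654938-59655057, minus).
Hnrnpc: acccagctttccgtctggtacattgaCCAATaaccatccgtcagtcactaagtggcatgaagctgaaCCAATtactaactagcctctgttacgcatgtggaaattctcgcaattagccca
Sf3a3: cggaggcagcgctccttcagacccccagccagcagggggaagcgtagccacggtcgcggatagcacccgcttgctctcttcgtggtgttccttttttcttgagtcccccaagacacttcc
Snrpn: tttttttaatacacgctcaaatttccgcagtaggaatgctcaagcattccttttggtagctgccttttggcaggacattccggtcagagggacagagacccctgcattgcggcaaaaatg
Hnrnpc holds the CCAAT box at both capitalised places, and the other windows shown hold none of the searched motifs. Over 250 bases before to 50 after the start, searched on both strands, CCAAT was in 39.2% of the 51 tested members and 39.8% of 12552 tested protein-coding genes, the GC box GGGCGG in 64.7% and 57.7%, the ETS motif CCGGAAG in 29.4% and 15.5%, CACGTG in 7.84% and 9.96%, and TATAAA in 5.88% and 8.55%. A match describes letters in the window and no binding.

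Rescue cells were compared with PKP4-KO cells to see which levels moved when PKP4 was returned. This comparison shares the PKP4-KO libraries with the one above, so that the values stand side by side and their opposite signs are no separate evidence. In 24 h LCM none of the members rose and 13 fell, against 33.7% of all genes called, 18.2% higher and 15.5% lower, and with medians of -0.35 for members and 0 for all genes. In 24 h HCM none rose and 22 fell, against 40.8% called, 21.7% higher and 19% lower, with medians of -0.50 and -0.024. In 72 h LCM 1 rose and 10 fell, against 41.5% called, 23.3% higher and 18.3% lower, with medians of -0.19 and 0.028. In 72 h HCM 20 rose and 21 fell, against 66.7% called, 37.2% higher and 29.5% lower, with medians of 0.072 and 0.20. Plain library sizes gave 0 and 11, 0 and 17, 4 and 5, and 37 and 10, so that the lower majority held at 24 h and turned at 72 h HCM. The count at 72 h LCM was 21 without Rescue replicate 2, which was rich in short transcripts.

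Srsf3, Srsf7, Snrpb2, Snrpb and Hnrnpc were lower in Rescue than in PKP4-KO in all 4 conditions, except that with plain library sizes Snrpb (0.25) and Hnrnpc (0.70) were higher at 72 h HCM. At 24 h LCM Srsf3 stood at 204, 195 and 213 CPM in Rescue and 457, 438 and 352 CPM in PKP4-KO, without overlap. The log2 fold changes of Srsf3 were -1.03 (4.98e-07), -1.22 (1.41e-08), -0.98 (8.22e-07) and -1.53 (2.22e-10; -0.35 and not called with plain library sizes), and those of Srsf7 -0.78 (2.39e-05), -1.01 (3.18e-07), -0.63 (0.000304) and -1.53 (1.76e-10). Hnrnpc moved by -0.71 (9.81e-06), -0.77 (1.74e-06), -0.49 (0.000724) and -0.48 (0.000489). Snrpn did not follow this pattern. It was at -0.27, 0.08 and -0.23 in the first 3 conditions, not called, and fell by 0.62 (0.00777) at 72 h HCM, a call lost without Rescue replicate 2 (-0.49, adjusted p = 0.0573). Hnrnph2 was at -0.06, -0.13 and -0.09, not called, and rose by 1.16 (2.93e-06) at 72 h HCM, from 31.6, 32.6 and 35.999 CPM in PKP4-KO to 69.3, 77.9 and 77.0 CPM in Rescue, against 65.3, 70.6 and 49.3 CPM in WT.

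At 72 h HCM the classes parted by direction between Rescue and PKP4-KO. All 8 Sm core genes fell, with a class median of -3.03, and so did 3 of the 4 U1 and U2 snRNP genes, while 11 hnRNP genes rose and 3 fell and 6 SR proteins rose and 3 fell. With plain library sizes 6 genes of the Sm core fell and 1 rose, since Snrpb and Snrpn turned to 0.25 and 0.56, the U1 and U2 snRNP genes split into 2 and 2, and 19 hnRNP genes and 8 SR proteins rose. Snrpg fell by 4.39 ± 1.02 (0.000513), Snrpe fell by 3.51 ± 0.67 (5.12e-05), Snrpd3 fell by 3.19 ± 0.65 (0.000118) and Sf3b6 fell by 2.61 ± 0.23 (2.15e-10). Hnrnpu rose by 1.87 ± 0.24 (2.21e-07), Sf3b1 by 1.56 (9.76e-05), Hnrnpm by 1.53 (1.22e-05) and Hnrnpr by 1.35 (1.87e-08). These libraries also differed in the share of counts on short transcripts, with all PKP4-KO libraries at 30.9% or more.

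Against WT, the members called in Rescue were fewest at 24 h. In 24 h LCM 3 rose and 2 fell (24.8% of all genes called), in 24 h HCM 1 and 5 (23.2%), in 72 h LCM 3 and 4 (32.4%), and in 72 h HCM 8 and 14 (36.2%), with member medians of 0.042, -0.064, -0.010 and -0.025 and medians of all genes of 0.022, -0.045, 0.034 and 0.063. With plain library sizes the split at 72 h HCM was 20 and 4. Of the 22 calls at 72 h HCM 16 were lost without at least 1 of the 6 libraries, and 8 members were called without WT replicate 3, which was rich in short transcripts. In all, 24 members (47.1%) were never called against WT, as were 41.4% of all tested genes. Snrpn was higher in each condition, by 1.04 (0.000243), 1.04 (0.000239), 0.77 (0.00337) and 0.66 (0.0112), the last not without WT replicate 3 (0.56, adjusted p = 0.0663). Hnrnph2 fell by 0.68 (0.0044), 0.59 (0.0128) and 0.75 (0.0012) and was at 0.27 in 72 h HCM, and the call at 24 h HCM was lost without Rescue replicate 2 (-0.57, adjusted p = 0.0516) or WT replicate 1 (-0.45, adjusted p = 0.103). Srsf7 fell below WT at 72 h HCM by 0.85 (1.2e-05), with 59.5, 50.7 and 52.4 CPM in Rescue against 103, 99.5 and 91.3 CPM in WT.

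The members called for calcium at 72 h were nearly all lower in HCM. From LCM to HCM 11 members fell and none rose in WT (21.4% of all genes called, 10.8% lower), 25 fell and 1 rose in PKP4-KO (32.6%, 19.7% lower), and 15 fell and 1 rose in Rescue (24.9%, 12% lower), with plain library sizes giving 17 and 0, 39 and 0, and 6 and 3. The member medians were -0.26, -0.43 and -0.32, and those of all genes 0.0066, -0.077 and -0.0064. The Sm core had positive medians in WT (0.81) and PKP4-KO (1.06), with none of its genes called, and a median of -1.05 in Rescue. At 24 h 2 members fell in WT (14.2% of all genes called, 7.69% higher and 6.48% lower), 1 in PKP4-KO (2.83%, 1.44% higher and 1.4% lower) and 3 in Rescue (12%, 6% higher and 5.96% lower), and none rose. Without Rescue 72 h HCM replicate 2 the count of 16 in Rescue was 6, and without WT 72 h LCM replicate 2 that of 11 in WT was 6.

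Sf3a1, which encodes the SF3A subunit that binds the U1 snRNP as well, was the only member called lower in HCM than in LCM in all 6 comparisons. At 72 h it stood at 76.6, 81.2 and 81.0 CPM in WT LCM and 51.6, 51.3 and 52.1 CPM in WT HCM, at 76.6, 92.9 and 94.8 against 57.2, 47.1 and 50.1 CPM in PKP4-KO, and at 83.4, 80.6 and 95.7 against 60.5, 64.6 and 52.7 CPM in Rescue. No HCM library overlapped the LCM libraries of its genotype. The log2 fold changes were -0.62 (5.1e-05), -0.78 (2.05e-06) and -0.55 (0.000245) at 72 h and -0.38 (0.0115), -0.37 (0.0457) and -0.47 (0.00222) at 24 h in WT, PKP4-KO and Rescue. At 24 h the call in WT was lost without HCM replicate 2 (-0.34, adjusted p = 0.0677), LCM replicate 2 (-0.35, 0.0541) or LCM replicate 3 (-0.35, 0.0603). The call in PKP4-KO at 24 h was lost without LCM replicate 2 or 3 or any 1 of the HCM replicates (adjusted p = 0.08 to 0.178). Plain library sizes ended the calls of Sf3a1 in PKP4-KO and Rescue at 24 h and in Rescue at 72 h (-0.42, adjusted p = 0.0892), and length offsets those in WT at both times (-0.38, adjusted p = 0.0698, at 72 h) and in PKP4-KO at 24 h.

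Srsf4, an SR protein with a long RS domain, stood at 46.6, 36.5 and 38.7 CPM in WT 72 h LCM and 22.5, 25.7 and 20.4 CPM in HCM, a fall of 0.83 ± 0.20 (0.00281), and fell by 1.28 ± 0.20 (2.02e-05) in PKP4-KO, from 50.8, 26.9 and 37.3 to 16.1, 13.8 and 17.5 CPM. Sf3b2 fell by 0.73 ± 0.17 (0.00233) in WT, from 383, 356 and 358 to 216, 246 and 201 CPM. In PKP4-KO Hnrnpa0 fell by 1.28 on the log2 scale (0.000648), from 342, 167 and 277 to 97.8, 96.5 and 129 CPM, and Hnrnpll fell by 1.27 (0.00141), from 49.3, 30.1 and 52.9 to 16.005, 17.9 and 20.9 CPM. None of these groups overlapped. In Rescue the leading falls were Srsf7 by 0.87 (1.33e-05), from 85.8, 103 and 108 to 59.5, 50.7 and 52.4 CPM, and Snrpc and Sf3a2. Without Rescue 72 h LCM replicate 2, rich in short transcripts, Snrpc moved from -1.04 (0.0299) to -0.52 (adjusted p = 0.342) and Sf3a2 from -0.79 (0.0176) to -0.37 (adjusted p = 0.299). Both were also lost without Rescue 72 h HCM replicate 2 or 3 (Snrpc adjusted p = 0.0954 and 0.0535, Sf3a2 0.0527 and 0.0614), and Snrpc without replicate 1 (0.0802).

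The difference between the calcium effects of PKP4-KO and WT at 72 h was tested directly, and no member passed (5.74% of all genes called). With edgeR 4 members had an unadjusted p below 0.05, and DESeq2 called 0, whereas without the 7 libraries that stood apart 25 were called, 9 higher and 16 lower. In that smaller fit 12.1% of all genes were called higher and 12.5% lower. For Rescue against WT the difference was called for 5 members, 3 higher and 2 lower (14.6% of all genes called). For Srsf7 the difference of the log2 fold changes was -1.06 ± 0.19 (2e-04), and for Hnrnph2 it was 1.03 ± 0.25 (0.00464). Hnrnpa1, at 405, 491 and 418 CPM in Rescue LCM and 266, 280 and 333 CPM in Rescue HCM against 360, 315 and 361 CPM and 351, 367 and 519 CPM in WT, differed by -0.84 ± 0.24 (0.0176), a call lost without Rescue LCM replicate 2 (0.0609), Rescue HCM replicate 1 (0.0526), WT HCM replicate 3 (0.0888) or WT LCM replicate 2 (0.0541).

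From 24 h to 72 h nearly all called members were lower at 72 h, although in most groups the share of members called was near or below that of all genes. In LCM 3 fell and none rose in WT (9.96% of all genes called, 4.66% lower), 14 fell and 1 rose in PKP4-KO (26.1%, 13.7% lower), and 3 fell and none rose in Rescue (9.81%, 2.96% lower). In HCM 10 fell and none rose in WT (17.8%, 8.69% lower), 33 fell and 2 rose in PKP4-KO (55.8%, 31.4% lower), and 12 fell and none rose in Rescue (24.3%, 10.7% lower). Plain library sizes gave 3, 27 and 5 lower in LCM and 17, 44 and 10 in HCM, with 1 higher, in Rescue HCM. Srsf3 and Srsf7 fell in all 6 comparisons. Srsf7 fell by 0.88 in WT LCM, 0.51 in WT HCM (0.0069; without WT 24 h HCM replicate 3 by 0.43, adjusted p = 0.0504), 0.80 in PKP4-KO LCM, 0.77 in PKP4-KO HCM and 0.64 in Rescue LCM, and it fell by 1.295 in Rescue HCM. Srsf3 fell by 0.90 (3.58e-05) and 0.57 (0.00319) in WT LCM and HCM, 0.47 (0.00871) and 0.58 (0.000607) in the PKP4-KO groups, and 0.42 (0.0384) and 0.88 (1.17e-05) in Rescue. Its call in PKP4-KO LCM was lost without 72 h replicate 2 (adjusted p = 0.0662), and that in Rescue LCM without 72 h replicate 1 or 2 or any 1 of the 24 h replicates (0.0621 to 0.208).

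The effect of PKP4 loss in HCM differed between 72 h and 24 h in 16 members, 15 lower and 1 higher (26.6% of all genes called), with medians of -0.37 for members and -0.075 for all genes, and with plain library sizes in 40, all lower. The leading members were Hnrnpa0 at -1.50 ± 0.38 (0.00405), Hnrnpll at -1.48 ± 0.41 (0.0076), Hnrnpu at -1.46 ± 0.33 (0.00151), Srsf2 at -1.33 ± 0.32 (0.00233) and Hnrnpr at -1.32 ± 0.21 (2.11e-05). Hnrnpr stood at 38.7, 30.7 and 29.6 CPM in WT and 55.9, 54.2 and 49.9 CPM in PKP4-KO at 24 h, and at 25.5, 29.8 and 21.0 CPM against 15.1, 14.8 and 19.5 CPM at 72 h, so that on this TMM scale the groups did not overlap at either time and changed places. Its canonical transcript is 21475 nt, and with length offsets the value of Hnrnpr against WT at 72 h HCM turned positive, as given above. The member that moved up was Sf3b6, at 1.201 ± 0.31 (0.00413).

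At 72 h HCM fold changes went with transcript length, in the family as in all genes. For PKP4-KO against WT Spearman's rho between log2 fold change and canonical transcript length was -0.55 over the 51 members and -0.39 over 15073 tested genes, and for Rescue against WT 0.65 and 0.37. For the other PKP4-KO contrasts the members had -0.52, -0.19 and -0.59 at 24 h LCM, 24 h HCM and 72 h LCM, and all genes -0.27, -0.12 and -0.37. These are descriptions across genes measured in the same libraries. In PKP4-KO against WT the median of the 3 members under 1000 nt was 1.03 (all genes 1.002) and that of the 11 members in the bin of the longest transcripts was -0.53 (all genes -0.70). With length offsets the counts for PKP4-KO against WT were 24 higher and 1 lower, 26 and 3, 18 and 4, and 17 and 9, and for Rescue against PKP4-KO 0 and 20, 0 and 28, 0 and 17, and 13 and 24. Of all genes 22.5% were higher and 20.7% lower, 23.1% and 23.1%, 23.4% and 21.1%, and 24.4% and 25.1% in the former. In the latter the shares of all genes were 18.5% and 18.2%, 22% and 22.5%, 20.2% and 20.3%, and 29.8% and 29.9%. At 24 h HCM, where length and fold change were least related, the medians by length bin were 0.74, 0.36, 0.45, 0.43 and 0.31 from the shortest to the longest members. Those of all genes were 0.14, 0.13, 0.046, -0.058 and -0.19.

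**Figure D5:**
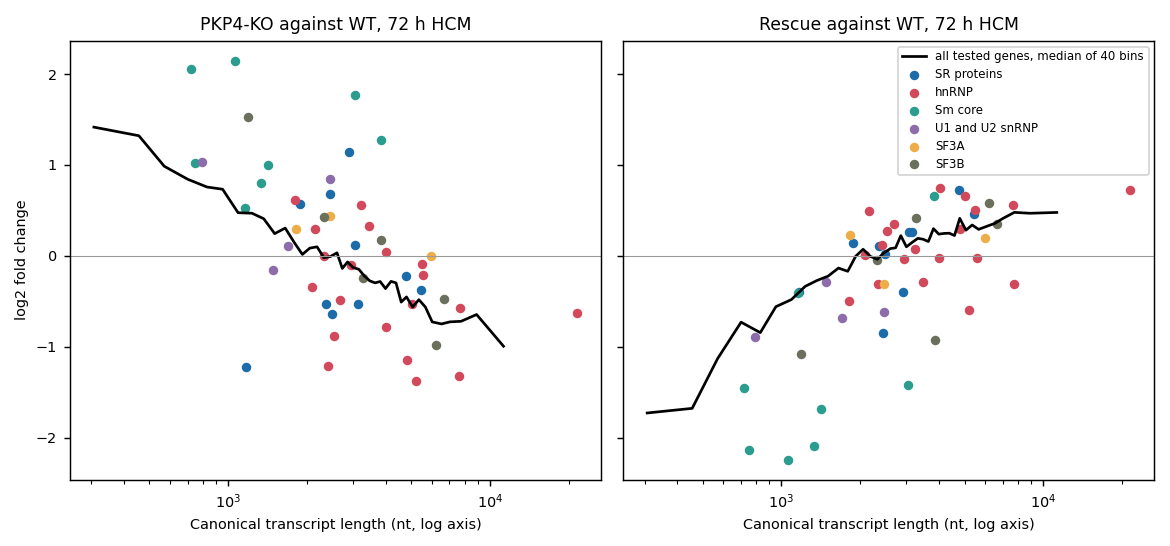
log2 fold change (y axis) against canonical transcript length (x axis, nt, log scale) at 72 h HCM for PKP4-KO against WT (left) and Rescue against WT (right), with members as points coloured by class and the median of all tested genes in 40 length bins as a line. Values of members fell from short to long on the left (rho -0.55) and rose on the right (rho 0.65), while Snrpd3 (3055 nt) and Snrpn (3826 nt) lay well above the line on the left; plain library sizes shift all values by -0.76 on the left and 0.40 on the right.

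Other genes of the splicing machinery, listed by role, were counted in the same fit. Of 114 tested, 45 rose and 7 fell in PKP4-KO against WT at 24 h LCM, 45 and 9 in HCM of the same time, 32 and 17 after 72 h in LCM and 27 and 29 in HCM, whereas with plain library sizes the counts for all other splicing genes were 21 and 10, 37 and 4, 8 and 25, and 7 and 75. The medians were 0.37, 0.35, 0.14 and 0.075. Of all tested genes 40.2%, 42.8%, 45.1% and 51.8% were called in these 4 conditions with TMM factors, while with plain library sizes all genes shifted as given above. Those higher were 19.7%, 20.7%, 21.3% and 21.9%, and those lower 20.6%, 22.2%, 23.8% and 29.9%. In Rescue against PKP4-KO 6 rose and 30 fell, 7 and 35, 16 and 20, and 43 and 32, and with plain library sizes 5 and 21, 5 and 28, 26 and 9, and 85 and 12. Of all tested genes 33.7%, 40.8%, 41.5% and 66.7% were called there. The listed genes that led at 24 h HCM in PKP4-KO against WT were Crnkl1, of the catalytic spliceosome, which rose by 1.66 ± 0.30 (4.19e-05), and Lsm3, which rose by 1.40 ± 0.28 (0.000178). Srpk2, a kinase of SR proteins, fell by 1.07 ± 0.22 (0.000166) and Ptbp3, a repressor that binds pyrimidine tracts, fell by 0.87 ± 0.35 (0.0429). At 72 h HCM Lsm5 rose by 2.55 ± 0.85 (0.0137) and Lsm3 by 1.96 ± 0.29 (2.49e-06), while Srpk2 fell by 2.02 ± 0.23 (3.21e-08) and Mbnl2, a regulator of differentiation-linked exons, fell by 1.98 ± 0.53 (0.00283).

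Of the 16 genes of the U5 and U4/U6 snRNPs, 11 rose and none fell in PKP4-KO at 24 h LCM, 9 and 1 in HCM of the same time, 4 and 2 after 72 h in LCM and 6 and 3 in HCM, and with plain library sizes those of U5 and U4/U6 gave 4 and 1, 9 and 0, 1 and 3, and 3 and 11. Of the 7 LSm genes, relatives of the Sm ring that bind U6, 3, 4, 4 and 5 rose and none fell over the 4 conditions, with 3, 4, 3 and 3 for plain library sizes, and all 7 fell in Rescue against PKP4-KO at 72 h HCM. Of 11 genes for the assembly of Sm rings, 6, 6, 3 and 3 rose and at most 1 fell, but with plain library sizes 6 genes of Sm assembly fell and none rose at 72 h HCM. Of 17 genes of the Prp19 complex and catalytic step 7, 7, 7 and 3 rose and 1, 1, 1 and 3 fell, with 3, 6, 0 and 0 rising and 1, 0, 3 and 12 falling for plain library sizes. Of 9 genes of the minor spliceosome 2, 3, 2 and 2 rose and 1, 1, 2 and 3 fell, and of 7 SR kinases and import genes 2 rose in each condition and 1, 1, 1 and 2 fell. Of 33 other regulators 8, 11, 7 and 3 rose and 3, 5, 7 and 10 fell, and of 14 U1 and U2 associated genes 6, 3, 3 and 3 rose and 1, 0, 4 and 7 fell. The shares of all tested genes called, given in the paragraph above, are the background for these lists too. These lists were drawn up with earlier results of the same libraries known.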

How the data were processed

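Poly(A) RNA of 36 libraries was sequenced in pairs with strand kept. Alignment by the authors was to GRCm39 with HISAT2 2.1.0 and SAMtools 1.10, counting per gene was with featureCounts 2.0.0, and the deposited values are raw counts per gene in 1 table. The strand setting and the treatment of reads with several matches are not given in the sources used here, so counts of overlapping or near-identical genes are uncertain. All columns mapped to a labelled sample, and 0 were left unused.

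Genes were kept by filterByExpr over the 12 groups (15114 genes), scaled by TMM and fitted in 1 edgeR 4.0.16 quasi-likelihood model with 12 group means (R 4.3.3, limma 3.58.1, 24 residual degrees of freedom). Contrasts were called at an adjusted p (Benjamini-Hochberg over all tested genes) below 0.05, and SE is the absolute log2 fold change over the square root of F. At the median depth of 17353520 counts, 3 counts correspond to 0.173 CPM. Canonical transcripts and promoters were read from GENCODE vM39 and GRCm39, and 54749 of 55358 genes matched. A further exon-free window was read and is not reported here. Members given library by library were, in each contrast of PKP4-KO with WT, of calcium at 72 h and of effects, the 3 called members with the largest absolute change, those called in 1 direction in all 4 PKP4-KO contrasts, the highest member per kb of each class and the member with the smallest range. Other members were named to show a class or a call that depends on 1 library. Of the other splicing genes, the 2 leading ones in each direction in HCM were named. The scripts were tested on simulated counts.

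Alternatives were DESeq2 1.42.0, plain library sizes, no filter, at least 10 counts in every library, a replicate block, only the groups compared and each library left out. Length offsets and the fit without 7 libraries were added after the data were seen. The members and lists were chosen with earlier results of these data known. Replicate numbers were not treated as pairs.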

Additional observations from a re-analysis of the deposited data

Results flagged for a closer look

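A difference between effects was called by its interaction term in 2 contrasts. The effect of PKP4 loss in HCM differed between 72 h and 24 h for 16 members, led by Hnrnpa0 (-1.50), Hnrnpll (-1.48) and Hnrnpu (-1.46 on the log2 scale). All 3 PKP4-KO libraries of 72 h HCM were rich in short transcripts, so that this cannot be told apart from the genotype and condition. The calcium effect at 72 h differed between Rescue and WT for 5 members, led by Srsf7 (-1.06), Hnrnph2 (1.03) and Hnrnpa1 (-0.84). Without WT 72 h HCM replicate 3 or Rescue 72 h LCM replicate 2, both rich in short transcripts, 2 members were called in that contrast, and without Rescue 72 h LCM replicate 1 it was 11.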

How the results depend on the processing

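Counts of members called moved with several choices. With plain library sizes they were 13 for PKP4-KO against WT at 24 h LCM, 3 for Rescue against WT at 24 h HCM, 7, 17 and 9 for calcium in WT 24 h, WT 72 h and Rescue 72 h, 17, 27 and 5 for time in WT HCM, PKP4-KO LCM and Rescue LCM, 40 for the change of the PKP4-KO effect with time in HCM and 3 for the difference in calcium effect between PKP4-KO and WT. Without the filter they were 3 and 4 for Rescue against WT at 24 h and 72 h LCM, 0, 7, 0 and 0 for calcium in WT 24 h, WT 72 h, PKP4-KO 24 h and Rescue 24 h, and 6 and 1 for time in WT HCM and Rescue LCM. With only the groups compared they were 3 and 4 for Rescue against WT at 24 h HCM and 72 h LCM, 1, 6, 0 and 6 for calcium in WT 24 h, WT 72 h, PKP4-KO 24 h and Rescue 72 h, and 5, 0, 1, 0 and 33 for time in WT LCM, WT HCM, PKP4-KO LCM, Rescue LCM and Rescue HCM. Without the 7 libraries they were 15 for Rescue against WT at 72 h LCM, 20 and 26 for Rescue against PKP4-KO in LCM, 17, 2 and 10 for calcium in WT 72 h, PKP4-KO 24 h and Rescue 24 h, 6, 21 and 31 for time in WT LCM, WT HCM and Rescue HCM, and 27 and 25 for the differences in PKP4-KO effect and in calcium effect between PKP4-KO and WT. For that calcium difference 12.1% of all genes were called higher and 12.5% lower in the same fit. With length offsets they were 20 and 17 for Rescue against PKP4-KO in LCM, 7 and 3 for calcium in WT 72 h and PKP4-KO 24 h and 1 for the calcium difference. DESeq2 gave 4 for calcium in PKP4-KO 24 h and 8 for the calcium difference of Rescue and WT, and the minimum of 10 counts gave 3 for the former. The causes were not tested.

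Leaving out single libraries gave 17 to 22, 18 to 21, 13 to 21 and 19 to 34 for PKP4-KO against WT, 3 to 6, 2 to 6, 5 to 7 and 8 to 25 for Rescue against WT, and 10 to 14, 16 to 21, 9 to 21 and 38 to 39 for Rescue against PKP4-KO, in the order of the conditions above. For calcium it gave 0 to 2 and 6 to 10 in WT, 0 to 2 and 21 to 28 in PKP4-KO, and 1 to 3 and 6 to 16 in Rescue. For time it gave 2 to 3 and 6 to 10 in WT, 10 to 16 and 31 to 36 in PKP4-KO, and 1 to 3 and 6 to 13 in Rescue. For the differences it gave 11 to 19 (PKP4-KO effect), 0 to 1 and 2 to 11 (calcium).

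Plain library sizes turned the sign at 72 h HCM in PKP4-KO against WT for Snrpb (-0.23), Sf3b4 (-0.32), Sf3a3 (-0.45), Hnrnpl (-0.44), Hnrnpc (-0.20), Srsf5 (-0.17), Hnrnpa1 (-0.11) and Srsf7 (-0.10), in Rescue against WT for Snrpb (0.018), Hnrnpd (0.089) and Srsf3 (0.0095), and in Rescue against PKP4-KO for Hnrnpc (0.70), Snrpb (0.25) and Snrpn (0.56). Length offsets did so in PKP4-KO against WT for Hnrnpr (0.49), Hnrnpd (0.12), Sf3b3 (0.17) and Srsf1 (0.17), and in Rescue against PKP4-KO for Hnrnpa3 (-0.047).

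Replicate numbers were not taken as pairs, since 21 of 72 same-numbered pairs had deviations correlated over 0.1, although in 2 contrasts (Rescue against PKP4-KO at 72 h LCM and calcium in WT 24 h) all 3 pairs were. A replicate block moved the count for calcium in PKP4-KO 24 h from 1 to 0 and no other count by over 1.5 times. With 3 libraries a group, the standard error of Snrpg for Rescue against PKP4-KO at 72 h HCM was 1.02, so that small changes of this gene were not detectable.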

Other observations

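The 18 listed cell cycle genes moved beside the splicing genes. In PKP4-KO against WT 9 rose and none fell at 24 h LCM, 15 and none at 24 h HCM (median log2 fold change 1.12), 6 and 3 at 72 h LCM and 3 and 5 at 72 h HCM. Of all tested genes 40.2%, 42.8%, 45.1% and 51.8% were called in these conditions. With plain library sizes the cell cycle counts were 4 and 0, 15 and 0, 0 and 4, and 0 and 15. The shares of all genes are those of the TMM fit, and with plain library sizes all genes shifted as given above. In Rescue against PKP4-KO none rose and 14 fell at 24 h LCM and none rose and 15 fell at 24 h HCM, and against WT none rose and 10 and 7 fell. Of all tested genes 33.7% and 40.8% were called against PKP4-KO and 24.8% and 23.2% against WT. The part of these changes in those of the splicing genes was not tested.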
